A study of Mus musculus with 6 samples.

Results

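WNT genes were examined in 6 tumours of HM1, a murine ovarian cancer cell line, sampled in an early tumour model and profiled by RNA sequencing. The set held 47 of the 57462 genes listed for each library and was taken by gene name. It comprised 19 Wnt ligand genes, 12 receptor genes (10 Fzd genes with Lrp5 and Lrp6), 9 genes of secreted inhibitors (4 Sfrp genes, 4 Dkk genes and Wif1), the intracellular genes Ctnnb1 and Axin1, and 5 genes that are feedback targets or act downstream (Axin2, Lef1, Nkd1, Rnf43 and Znrf3). In 3 tumours the HM1 cells carried a short hairpin RNA against the sialyltransferase ST3GAL3 (shST3GAL3), labelled as a knockdown. In the other 3 they carried a control hairpin (shControl), labelled as wild type. The sources used here do not give the host strain, its age, the site of the tumours, the time of sampling or the number of hairpins or clones. The labels do not state whether each tumour came from its own mouse, so the p-values describe the spread among these 6 samples, which may be technical.

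WNT proteins are secreted lipid-modified ligands that bind Frizzled receptors, encoded by the Fzd genes, together with the co-receptors LRP5 and LRP6. Binding stops the breakdown of β-catenin, encoded by Ctnnb1, which then enters the nucleus and works with TCF and LEF factors to switch on target genes. Other WNT proteins act through Frizzled receptors without β-catenin, on cell shape and movement. Secreted proteins of the SFRP and DKK families and WIF1 hold the signal back outside the cell, and several target genes encode feedback inhibitors inside it.

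Expression is given as TPM, a share of all transcripts after correction for transcript length, so that levels of different genes can be set side by side. Genes with at least 1 TPM in 3 or more libraries were tested, 14207 in all. Of these, 0 were higher and 1, the predicted gene Gm1943, was lower in shST3GAL3 tumours at an adjusted p under 0.05 (limma), which is 0% and 0.00704% of the genes tested. The targeted gene St3gal3 stood at 8.44, 6.77 and 7.49 TPM in shST3GAL3 1, 2 and 3, against 14.03, 13.84 and 13.79 TPM in shControl 1, 2 and 3, without overlap. The log2 fold change of St3gal3 was -0.80 (SE 0.11), with a limma adjusted p of 0.348. An exact two-sided permutation test of 3 against 3 libraries cannot go below p = 0.1, the value it gave here. The keratin genes Krt8, Krt18 and Krt19 stood between 384.42 and 1303.81 TPM in every library, whereas Epcam did not exceed 1.17 TPM and Muc16, a marker of ovarian carcinoma, was listed at 0 throughout.

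The library shST3GAL3 1 stood apart from the others. The 10 fibroblast markers, collagen genes among them, summed to 7395, 2273 and 1568 TPM in shST3GAL3 1, 2 and 3, against 1055, 841 and 1357 TPM in shControl 1, 2 and 3. None of the 10 was at 0 in any library, and 9 had no overlap between the groups, with shST3GAL3 higher. Such an absence of overlap held for 15.7% of all genes tested. All 10 were higher at an unadjusted p under 0.05 (limma), against 9.19% of all genes tested, with 0 passing after adjustment. The 8 epithelial markers, nearly all of whose sum is Krt8, Krt18 and Krt19, summed to 1765, 2685 and 3193 TPM in shST3GAL3 1, 2 and 3, against 3278, 3673 and 3193 TPM in shControl 1, 2 and 3. Cdh1, an epithelial adhesion gene, was instead highest in shST3GAL3 1, at 9.46, 2.58 and 2.89 TPM in shST3GAL3 1, 2 and 3, against 2.94, 3.14 and 2.44 TPM in shControl 1, 2 and 3, and Epcam had its 1.17 TPM in shST3GAL3 1. Whole tumours were sequenced, so that fewer cells of a type and less RNA per cell cannot be told apart. The part that these markers have in the WNT values was not tested, and log2 fold changes are also given without shST3GAL3 1 where that moves them by over 1.5 times.

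**Figure D1:**
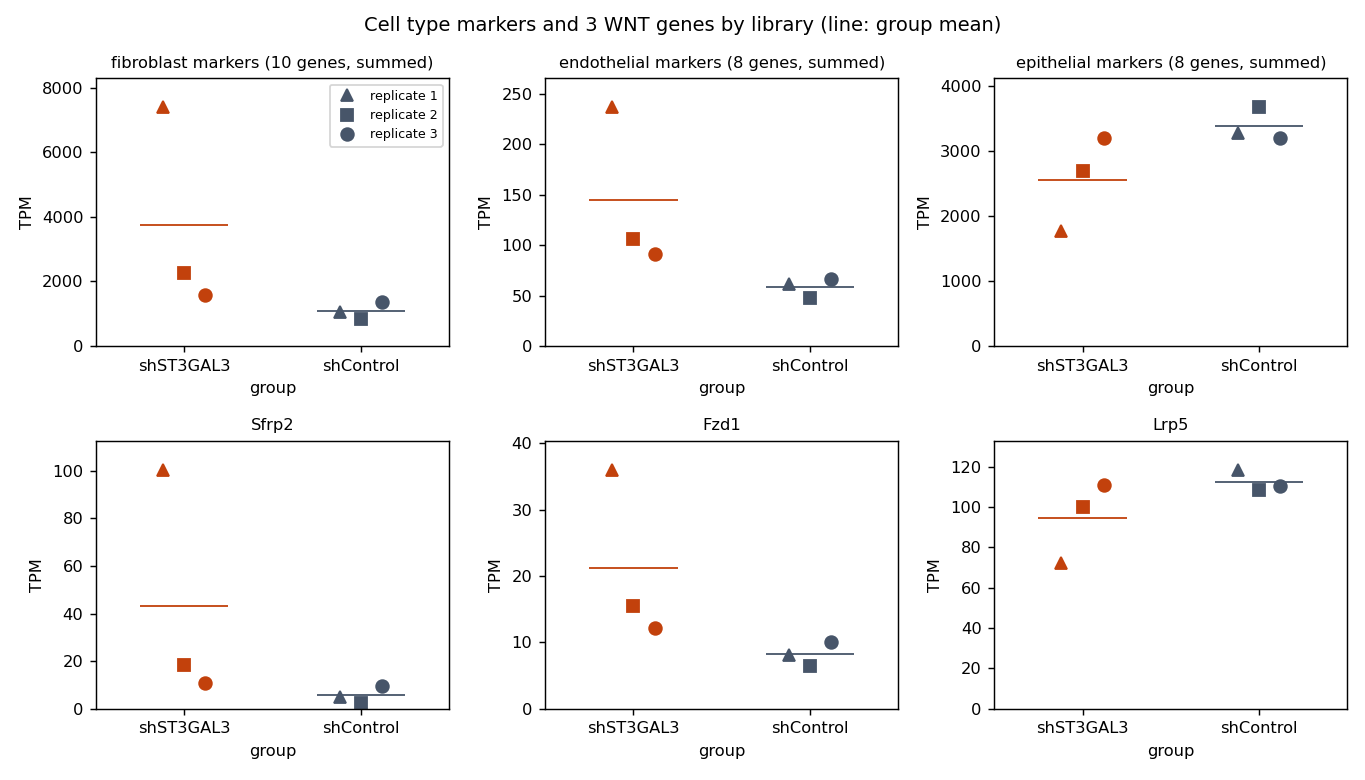
Summed TPM of 10 fibroblast, 8 endothelial and 8 epithelial markers, and TPM of Sfrp2, Fzd1 and Lrp5, for each library (points; the line is the group mean, shST3GAL3 on the left). Fibroblast and endothelial markers, Sfrp2 and Fzd1 were highest in shST3GAL3 1, and the epithelial sum, mostly keratin genes, and Lrp5 were lowest there.

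Of the 47 WNT genes, 20 passed the filter and 27 did not, 6 of which were listed at 0 in all libraries. One of the 20, Axin2, passed through the shST3GAL3 libraries alone, where it was higher, so counts over the 20 are a description. None of the 20 was called after adjustment over all genes, with adjusted p between 0.380 and 0.870 (limma). At an unadjusted p under 0.05, 4 of the 20 (20%) were higher (Fzd1, Wnt2b, Sfrp2 and Sfrp1) and 0 lower, against 9.19% higher and 3.78% lower among all genes tested. The groups did not overlap, with shST3GAL3 above, for 10 of the 20 (50%), and with shST3GAL3 below for 1 (5%), against 15.7% and 7.76% of all genes. The log2 fold change was positive for 14 of the 20 (70%), against 52.7% of all genes, with a median of 0.39 against 0.01 over all genes.

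The number of WNT genes with an unadjusted p under 0.05 and higher values, 4 with all libraries, moved with the library left out, as did the share over all genes. It was 1 without shControl 1, 0 without shControl 2 and 3 without shControl 3, where 5.73%, 4.41% and 4.76% of all genes were higher at that p. It was 5 without shST3GAL3 2 and 7 without shST3GAL3 3, where 7.67% and 12.7% of all genes were higher. Leaving out a control library gave log2 fold changes from 1.00 to 1.28 for Fzd1, 1.84 to 2.63 for Sfrp2 and 1.56 to 2.42 for Sfrp1. With median-ratio scaling 4 WNT genes were higher and 0 lower, while the shares over all genes came to 6.93% higher and 5.63% lower. Without shST3GAL3 1, 5 were higher and 0 lower, with 0 called after adjustment. The percentages over all genes in that comparison were 8.54% higher and 3.13% lower unadjusted, and 0.0141% and 0.00704% adjusted. Those 5 were Wnt2b, Fzd1, Dkk3, Sfrp2 and Sfrp1. The median log2 fold change of the 20 was then 0.15, against 0.04 over all genes.

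Most of the genes took their extreme value in the same library. shST3GAL3 1 held the highest value of the 6 libraries for 12 of the 20 genes (60%) and the lowest for 6 (30%), together 18 (90%), against 28.6%, 36.7% and 65.3% of all genes tested. The 12 were Sfrp1, Sfrp2, Dkk3, Fzd1, Fzd2, Fzd4, Fzd7, Wnt2b, Wnt5a, Wnt11, Axin2 and Nkd1. The 6 were Wnt7b, Lrp5, Lrp6, Fzd5, Ctnnb1 and Znrf3. Wnt5b and Axin1 belonged to neither.

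**Figure D2:**
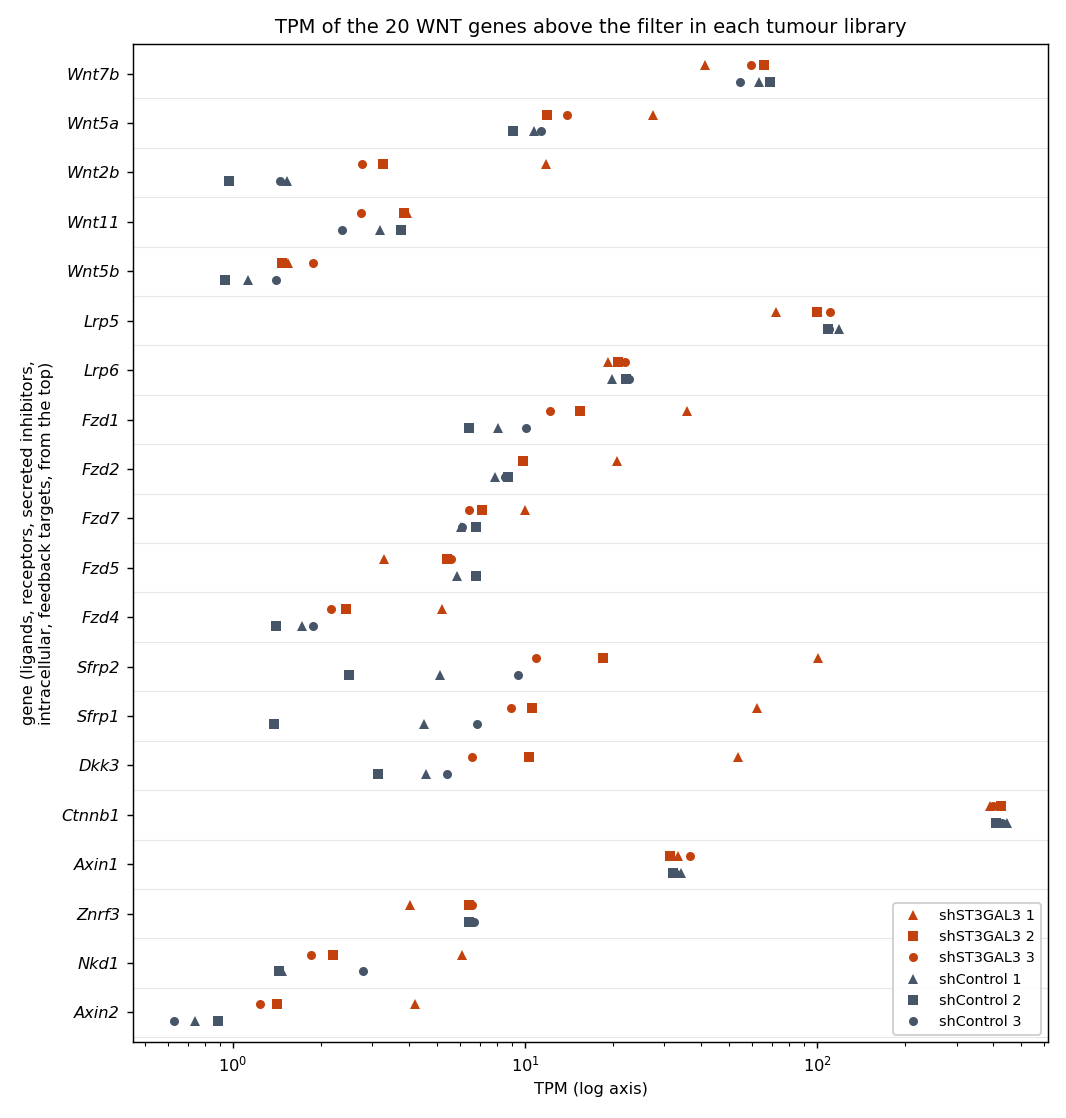
TPM on a log axis of the 20 WNT genes that passed the filter, with the 3 shST3GAL3 libraries above the 3 shControl libraries in each row. The triangles of shST3GAL3 1 lie far to the right for Sfrp2, Sfrp1, Dkk3 and Fzd1 and to the left for Wnt7b, Lrp5, Fzd5 and Znrf3.

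Promoter sequences are shown for Sfrp2, Fzd1, Wnt2b and Axin2, 4 of the genes whose groups did not overlap with shST3GAL3 above, and for Fzd5, the member for which all shST3GAL3 values were the lower ones. Each run is the 250 bases before the gene start, 5′ to 3′ on the gene's strand, from RefSeq on GRCm38.p6. They lie at chr3:83766071-83766320 (plus strand) for Sfrp2, chr5:4758217-4758466 (minus strand) for Fzd1, chr3:104961710-104961959 (minus strand) for Wnt2b, chr11:108920099-108920348 (plus strand) for Axin2 and chr1:64737751-64738000 (minus strand) for Fzd5. Capitals mark the core letters of the TCF and LEF motif, searched as CTTTGA or CTTTGT on both strands.
Sfrp2: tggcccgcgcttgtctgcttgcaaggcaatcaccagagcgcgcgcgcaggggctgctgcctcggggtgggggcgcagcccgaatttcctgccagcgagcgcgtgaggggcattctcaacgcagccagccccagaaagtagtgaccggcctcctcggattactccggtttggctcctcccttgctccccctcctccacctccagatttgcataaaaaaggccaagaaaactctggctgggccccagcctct
Fzd1: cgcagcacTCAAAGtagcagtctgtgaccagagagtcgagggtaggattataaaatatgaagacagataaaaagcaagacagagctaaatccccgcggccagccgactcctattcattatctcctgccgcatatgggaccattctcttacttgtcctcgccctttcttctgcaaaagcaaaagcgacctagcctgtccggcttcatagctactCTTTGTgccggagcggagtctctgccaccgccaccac
Wnt2b: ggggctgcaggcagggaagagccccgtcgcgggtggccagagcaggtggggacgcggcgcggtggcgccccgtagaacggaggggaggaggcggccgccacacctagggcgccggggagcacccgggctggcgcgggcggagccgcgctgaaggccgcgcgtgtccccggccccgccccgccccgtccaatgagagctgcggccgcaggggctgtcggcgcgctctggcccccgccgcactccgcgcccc
Axin2: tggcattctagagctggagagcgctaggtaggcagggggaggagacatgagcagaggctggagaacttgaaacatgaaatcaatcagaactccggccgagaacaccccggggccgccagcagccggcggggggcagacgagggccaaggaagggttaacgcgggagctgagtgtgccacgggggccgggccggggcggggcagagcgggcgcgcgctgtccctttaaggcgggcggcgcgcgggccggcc
Fzd5: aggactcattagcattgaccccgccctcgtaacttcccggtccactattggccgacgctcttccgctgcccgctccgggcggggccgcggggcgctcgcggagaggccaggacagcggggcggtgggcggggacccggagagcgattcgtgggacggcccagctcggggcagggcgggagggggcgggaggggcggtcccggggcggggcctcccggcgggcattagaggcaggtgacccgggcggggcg

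The Fzd1 window held 2 matches, starting 242 and 37 bases before the gene start, and the other 4 windows held 0. No GENCODE transcript of Fzd1 (0 of 1) held the first 30 bases after this RefSeq start, whereas 1 or more did for each of the other 4 genes, so the positions in Fzd1 count from a start without that match. RefSeq windows were found by symbol for 31 of the 47 genes, 39 windows in all. One or more matches stood in 8 of these 39, or 20.5%, against 27.6% of all 32851 windows of that length. The 5 windows differ in base composition, with 51.2% G and C for Fzd1, 63.6% for Sfrp2, 69.2% for Axin2, 76.4% for Fzd5 and 80.8% for Wnt2b, against a median of 52.4% over all windows. A match is a run of letters and not a binding site, and nothing on TCF or LEF factors can be read from a window without one.

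The ligand genes had a similar summed level in all libraries, with a different makeup in shST3GAL3 1. The 19 genes summed to 92.7, 89.8 and 83.5 TPM in shST3GAL3 1, 2 and 3, against 82.2, 85.8 and 72.7 TPM in shControl 1, 2 and 3. The most abundant ligand gene was Wnt7b, which encodes a ligand known from lung, kidney and vessel development. Wnt7b stood at 41.46, 65.88 and 59.57 TPM in shST3GAL3 1, 2 and 3, against 63.37, 68.88 and 54.24 TPM in shControl 1, 2 and 3. The groups overlapped, and shST3GAL3 1 was the lowest library. Wnt7b made up 44.7%, 73.4% and 71.3% of the ligand sum in shST3GAL3 1, 2 and 3, against 77.1%, 80.3% and 74.6% in shControl 1, 2 and 3. Its log2 fold change was -0.18 (SE 0.18; limma adjusted p = 0.657) and turned to 0.02 without shST3GAL3 1, so no direction can be given.

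Wnt5a, the prototype of ligands that act without β-catenin, was the second most abundant. It stood at 27.35, 11.93 and 13.97 TPM in shST3GAL3 1, 2 and 3, against 10.75, 9.11 and 11.37 TPM in shControl 1, 2 and 3. The groups did not overlap, although shST3GAL3 2 and shControl 3 were 0.56 TPM apart. Wnt5a had a log2 fold change of 0.63 (SE 0.29; limma adjusted p = 0.396), and 0.29 without shST3GAL3 1. Wnt2b, whose product signals through β-catenin in several tissues, stood at 11.80, 3.26 and 2.77 TPM in shST3GAL3 1, 2 and 3, against 1.53, 0.97 and 1.45 TPM in shControl 1, 2 and 3. No Wnt2b value of one group reached into the range of the other. Its log2 fold change was 1.36 (SE 0.46; limma adjusted p = 0.380), and 0.80 without shST3GAL3 1.

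The other ligand genes were low. Wnt5b, a close relative of Wnt5a, stood at 1.55, 1.47 and 1.88 TPM in shST3GAL3 1, 2 and 3, against 1.13, 0.94 and 1.41 TPM in shControl 1, 2 and 3. Its groups did not overlap, by a margin of 0.06 TPM, and its highest value was in shST3GAL3 3 (log2 fold change 0.29, SE 0.18, limma adjusted p = 0.477, and 0.31 without shST3GAL3 1). Wnt11, a ligand of cell movement in development, averaged 3.52 ± 0.675 TPM in shST3GAL3 and 3.11 ± 0.703 TPM in shControl tumours (SD, n = 3 each), with overlap. The remaining 14 ligand genes did not pass the filter. Wnt3a, Wnt7a, Wnt8a and Wnt8b were listed at 0 in all libraries, and Wnt9b did not exceed 0.03 TPM. Wnt1, Wnt3, Wnt16, Wnt10b, Wnt6 and Wnt10a stayed below 1 TPM in every library. Wnt9a stood at 3.30, 1.32 and 0.58 TPM in shST3GAL3 1, 2 and 3, against 0.70, 0.71 and 0.62 TPM in shControl 1, 2 and 3. Wnt4 reached 1.19 TPM and Wnt2 reached 0.66 TPM, both in shST3GAL3 1. For Wnt9a, Wnt4 and Wnt2 the groups overlapped.

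**Figure D3:**
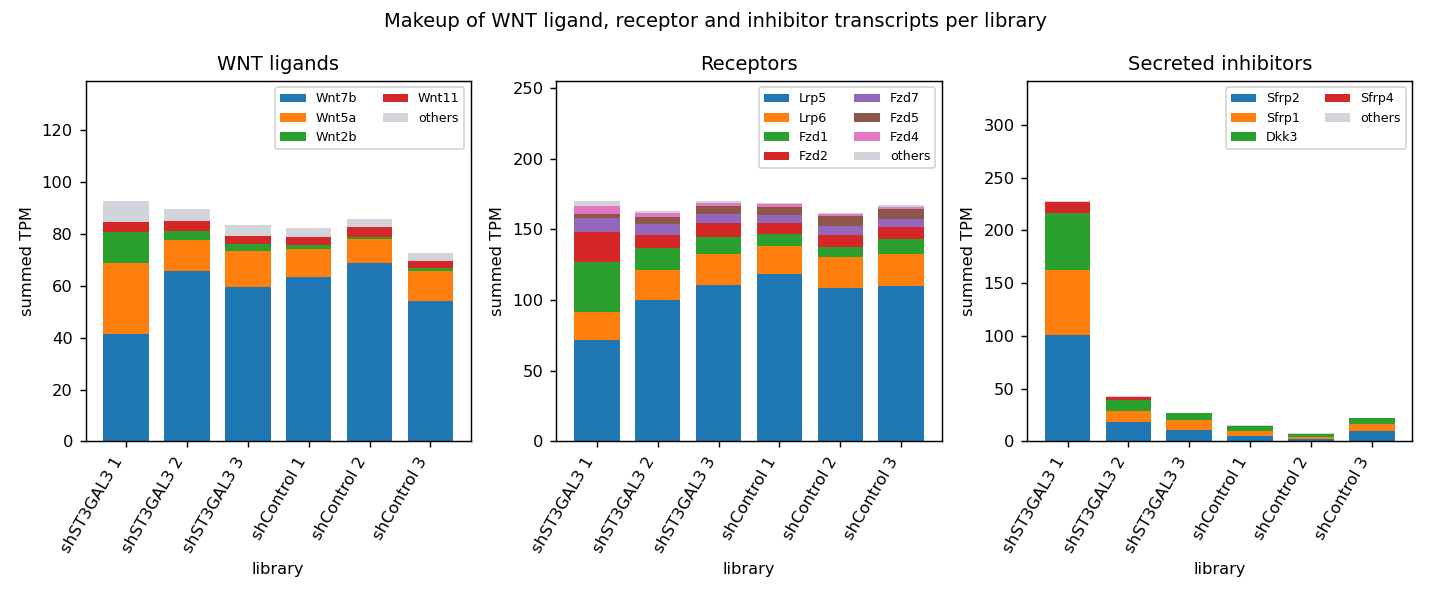
Summed TPM of WNT ligand, receptor and secreted inhibitor genes in each library, stacked by gene, with the 3 shST3GAL3 libraries to the left of the 3 shControl libraries. The ligand and receptor sums lie close together in all libraries, whereas the inhibitor sum is 228 TPM in shST3GAL3 1 and at most 43.0 TPM in the others.

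Receptor genes had a nearly constant sum, again with a different makeup in shST3GAL3 1. The 12 genes summed to 170, 163 and 170 TPM in shST3GAL3 1, 2 and 3, against 169, 161 and 167 TPM in shControl 1, 2 and 3. Within that sum, the 10 Fzd genes held 78.7, 42.0 and 37.1 TPM in shST3GAL3 1, 2 and 3, against 30.3, 30.6 and 34.2 TPM in shControl 1, 2 and 3, without overlap. The co-receptor gene Lrp5 was the most abundant receptor gene and had its lowest value where the Fzd sum was highest. Lrp5 stood at 72.06, 100.27 and 110.80 TPM in shST3GAL3 1, 2 and 3, against 118.47, 108.54 and 110.22 TPM in shControl 1, 2 and 3, with overlap. Its log2 fold change was -0.27 (SE 0.16; limma adjusted p = 0.454), and -0.09 without shST3GAL3 1. Lrp6, the second co-receptor gene, averaged 20.7 ± 1.36 TPM in shST3GAL3 and 21.6 ± 1.47 TPM in shControl tumours (SD, n = 3 each; log2 fold change -0.06, SE 0.09, and -0.01 without shST3GAL3 1).

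Fzd1 led the receptor genes by p. It stood at 35.98, 15.43 and 12.15 TPM in shST3GAL3 1, 2 and 3, against 8.06, 6.44 and 10.08 TPM in shControl 1, 2 and 3. The Fzd1 groups did not overlap. Fzd1 had a log2 fold change of 1.14 (SE 0.38; limma adjusted p = 0.380), and 0.70 without shST3GAL3 1. Fzd1 made up 45.7%, 36.7% and 32.7% of the Fzd sum in shST3GAL3 1, 2 and 3, against 26.6%, 21.0% and 29.5% in shControl 1, 2 and 3.

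Fzd2, a receptor that also binds WNT5A, stood at 20.58, 9.84 and 9.87 TPM in shST3GAL3 1, 2 and 3, against 7.87, 8.74 and 8.56 TPM in shControl 1, 2 and 3. Fzd4, known as a receptor of blood vessel growth in the retina, stood at 5.19, 2.44 and 2.16 TPM in shST3GAL3 1, 2 and 3, against 1.72, 1.41 and 1.88 TPM in shControl 1, 2 and 3. Neither gene overlapped between the groups, and both were highest in shST3GAL3 1. Their log2 fold changes were 0.54 (SE 0.27) for Fzd2 and 0.61 (SE 0.28) for Fzd4, with limma adjusted p of 0.411 and 0.396, and 0.21 and 0.31 without shST3GAL3 1. The 8 endothelial markers summed to 237, 106 and 91.2 TPM in shST3GAL3 1, 2 and 3, against 61.5, 47.2 and 66.6 TPM in shControl 1, 2 and 3. For all 8 of these markers the groups did not overlap, with shST3GAL3 above, against 15.7% of all genes tested. None was at 0, and Tek passed the filter through the shST3GAL3 libraries alone. The part of these markers in the values of Fzd4 was not tested.

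Fzd5, a receptor of intestinal and eye epithelia, was the one member with every shST3GAL3 value under the lowest shControl value. It stood at 3.29, 5.41 and 5.58 TPM in shST3GAL3 1, 2 and 3, against 5.83, 6.82 and 6.78 TPM in shControl 1, 2 and 3. The log2 fold change of Fzd5 was -0.40 (SE 0.19; limma adjusted p = 0.402), and -0.20 without shST3GAL3 1. The level of Fzd1 was 10.9, 2.85 and 2.18 times that of Fzd5 in shST3GAL3 1, 2 and 3, against 1.38, 0.944 and 1.49 times in shControl 1, 2 and 3. Fzd7 averaged 7.84 ± 1.88 TPM in shST3GAL3 and 6.31 ± 0.439 TPM in shControl tumours (SD, n = 3 each), with overlap (log2 fold change 0.25, SE 0.17, and 0.09 without shST3GAL3 1). Fzd3, Fzd6, Fzd8, Fzd9 and Fzd10 did not pass the filter. Of these 5, Fzd6 reached 1.89 TPM and Fzd8 reached 1.33 TPM in shST3GAL3 1, and the others stayed at or below 0.40 TPM.

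The secreted inhibitors held the members with the largest fold changes of the set. The 9 genes summed to 228, 43.0 and 27.2 TPM in shST3GAL3 1, 2 and 3, against 15.1, 7.68 and 22.1 TPM in shControl 1, 2 and 3, without overlap. Set against the ligand sum, this was 2.46, 0.479 and 0.326 TPM of inhibitor transcripts for each TPM of ligand transcripts in shST3GAL3 1, 2 and 3, against 0.184, 0.0896 and 0.303 in shControl 1, 2 and 3. The inhibitor sum exceeded the ligand sum only in shST3GAL3 1, and shST3GAL3 3 lay close to shControl 3.

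Sfrp2, which encodes a secreted decoy that carries a Frizzled-like domain, stood at 100.38, 18.53 and 10.87 TPM in shST3GAL3 1, 2 and 3, against 5.13, 2.49 and 9.47 TPM in shControl 1, 2 and 3. The lowest shST3GAL3 value and the highest shControl value were 1.40 TPM apart. Sfrp2 had a log2 fold change of 2.24 (SE 0.81; limma adjusted p = 0.380), and 1.33 without shST3GAL3 1. Sfrp1, a decoy of the same family, stood at 62.09, 10.56 and 8.98 TPM in shST3GAL3 1, 2 and 3, against 4.50, 1.38 and 6.84 TPM in shControl 1, 2 and 3. The libraries stood in the same order as for Sfrp2, without overlap. The log2 fold change of Sfrp1 was 2.05 (SE 0.78; limma adjusted p = 0.380), and 1.20 without shST3GAL3 1.

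Dkk3, a divergent member of the Dickkopf family whose effect on WNT signalling varies with the tissue, stood at 53.67, 10.33 and 6.56 TPM in shST3GAL3 1, 2 and 3, against 4.58, 3.15 and 5.42 TPM in shControl 1, 2 and 3. The order of the libraries was again that of Sfrp2, without overlap. Dkk3 had a log2 fold change of 1.66 (SE 0.70; limma adjusted p = 0.385), and 0.80 without shST3GAL3 1. The classical LRP-binding inhibitor gene Dkk1 was listed at 0 in all libraries, as was Dkk4, and Wif1 did not exceed 0.05 TPM. Dkk2 reached 0.52 TPM and Sfrp5 reached 0.13 TPM, both in shST3GAL3 1. Sfrp4 stood at 10.83, 3.09 and 0.53 TPM in shST3GAL3 1, 2 and 3, against 0.73, 0.42 and 0.07 TPM in shControl 1, 2 and 3. It did not pass the filter, and its groups overlapped through shST3GAL3 3.

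The summed fibroblast markers stood in the same order of libraries as Sfrp2, Sfrp1 and Dkk3. That order was not particular to them, since the summed endothelial markers and Fzd1 had it too. Ratios were taken to fibroblast markers alone. Per 1000 TPM of the 10 fibroblast markers, Sfrp2 came to 13.6, 8.15 and 6.93 TPM in shST3GAL3 1, 2 and 3, against 4.86, 2.96 and 6.98 TPM in shControl 1, 2 and 3. On that scale the groups overlapped, by shControl 3. Dkk3 came to 7.26, 4.54 and 4.18 TPM in shST3GAL3 1, 2 and 3, against 4.34, 3.74 and 3.99 TPM in shControl 1, 2 and 3. Fzd1 came to 4.87, 6.79 and 7.75 TPM in shST3GAL3 1, 2 and 3, against 7.64, 7.66 and 7.43 TPM in shControl 1, 2 and 3. For Dkk3 and Fzd1 too the groups overlapped. Wnt5a came to 3.70, 5.25 and 8.91 TPM in shST3GAL3 1, 2 and 3, against 10.2, 10.8 and 8.38 TPM in shControl 1, 2 and 3. Its groups overlapped, with the lowest values in shST3GAL3 1 and 2. For Sfrp1 and Wnt2b the groups overlapped on this scale as well. These ratios were chosen after the values were seen and were not tested.

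**Figure D4:**
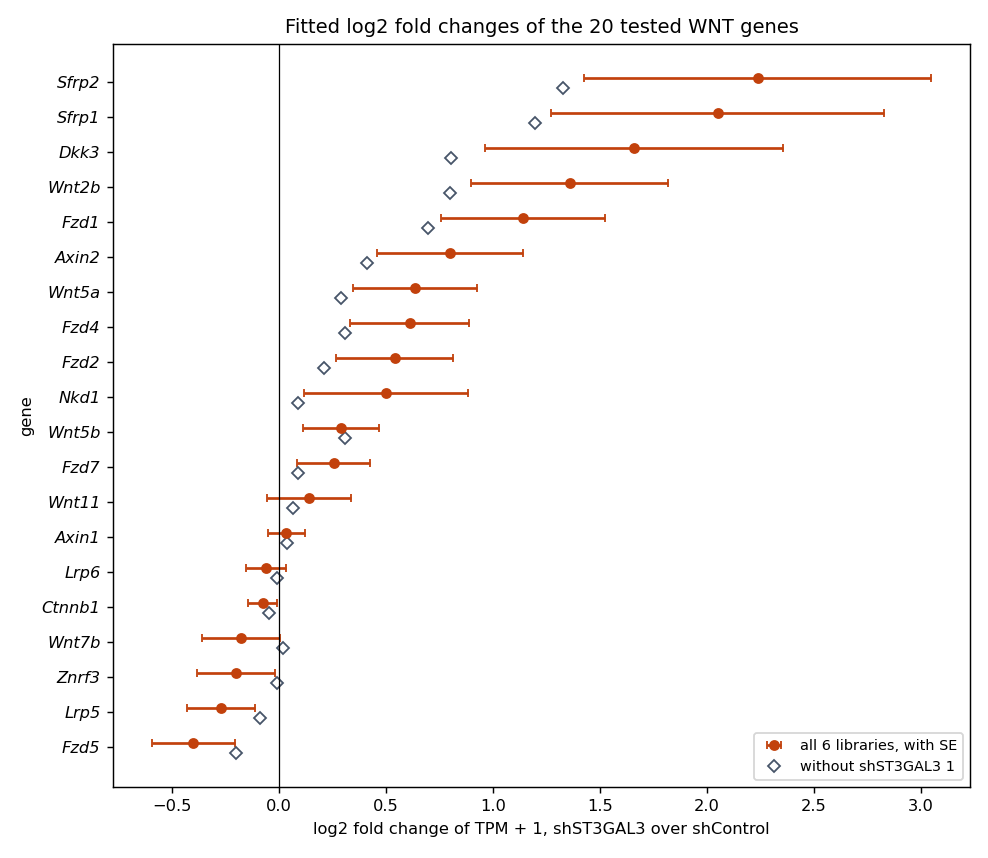
Log2 fold change of TPM + 1, shST3GAL3 over shControl, for the 20 tested WNT genes. Filled points with SE use all 6 libraries, and open diamonds leave out shST3GAL3 1. Sfrp2, Sfrp1, Dkk3, Wnt2b and Fzd1 lie furthest to the right in both, and Wnt7b changes sign.

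Inside the cell, Ctnnb1 and Axin1 had overlapping groups and small fold changes. Ctnnb1 was by far the most abundant member, at 390.30, 427.51 and 401.45 TPM in shST3GAL3 1, 2 and 3, against 446.00, 409.87 and 429.96 TPM in shControl 1, 2 and 3. The groups overlapped, and the log2 fold change was -0.08 (SE 0.07; limma adjusted p = 0.611), and -0.05 without shST3GAL3 1. Axin1, the scaffold of the complex that breaks β-catenin down, averaged 33.9 ± 2.74 TPM in shST3GAL3 and 33.0 ± 1.09 TPM in shControl tumours (SD, n = 3 each). Its log2 fold change of 0.03 (SE 0.09; limma adjusted p = 0.870) turned to -0.03 without shST3GAL3 3, so no direction can be given. A transcript level says nothing of the amount or place of the β-catenin protein.

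Axin2, a target gene of β-catenin in many tissues and a feedback inhibitor, stood at 4.20, 1.42 and 1.24 TPM in shST3GAL3 1, 2 and 3, against 0.74, 0.89 and 0.63 TPM in shControl 1, 2 and 3. The groups did not overlap, as the filter had required of any gene that passed it through that group alone. The log2 fold change of Axin2 was 0.80 (SE 0.34; limma adjusted p = 0.387), and 0.41 without shST3GAL3 1. Per 1000 TPM of fibroblast markers, Axin2 came to 0.568, 0.625 and 0.791 TPM in shST3GAL3 1, 2 and 3, against 0.701, 1.06 and 0.464 TPM in shControl 1, 2 and 3, with overlap. Nkd1, another feedback inhibitor, stood at 6.07, 2.20 and 1.85 TPM in shST3GAL3 1, 2 and 3, against 1.47, 1.44 and 2.79 TPM in shControl 1, 2 and 3. The Nkd1 groups overlapped through shControl 3, and its log2 fold change was 0.50 (SE 0.38; limma adjusted p = 0.556), and 0.09 without shST3GAL3 1.

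Rnf43 and Znrf3 encode related membrane ubiquitin ligases that remove Frizzled receptors from the cell surface. They did not follow each other. Znrf3 stood at 4.03, 6.43 and 6.56 TPM in shST3GAL3 1, 2 and 3, against 6.50, 6.44 and 6.69 TPM in shControl 1, 2 and 3. Apart from shST3GAL3 1, the Znrf3 libraries lay within 0.26 TPM of each other (log2 fold change -0.20, SE 0.18, limma adjusted p = 0.612, and -0.01 without shST3GAL3 1). Rnf43 stood at 0.51, 0.56 and 0.59 TPM in shST3GAL3 1, 2 and 3, against 0.11, 0.26 and 0.19 TPM in shControl 1, 2 and 3. Rnf43 did not pass the filter, its groups did not overlap, and shST3GAL3 1 was the lowest of its group. Lef1, a β-catenin partner that T cells also express, stood at 1.18, 0.59 and 0.31 TPM in shST3GAL3 1, 2 and 3, against 0.29, 0.34 and 0.14 TPM in shControl 1, 2 and 3. It did not pass the filter, and its groups overlapped. The 8 T cell markers summed to 108, 97.8 and 51.2 TPM in shST3GAL3 1, 2 and 3, against 59.9, 42.5 and 42.0 TPM in shControl 1, 2 and 3. None of the 8 was at 0, and 3 had no overlap between the groups, with shST3GAL3 above, against 15.7% of all genes tested. The part of these markers in the values of Lef1 was not tested.

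Of the 27 genes that did not pass the filter, 21 were above 0 in 1 or more libraries, and 5 of these had groups that did not overlap, with shST3GAL3 above, against 5.63% of all 14011 such genes. They were Rnf43, Fzd8, Fzd3, Dkk2 and Fzd10, with group means of at most 0.733 TPM in shST3GAL3 tumours. For 0 of the 21 did all shST3GAL3 values lie under those of shControl, against 2.03% of such genes.

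A further 78 genes of the pathway were listed by role, and 51 passed the filter. Of the 51, 0 were called after adjustment (limma), and 5 (9.8%) were higher and 0 lower at an unadjusted p under 0.05, with a median log2 fold change of 0.05. For 14 (27.5%) the groups did not overlap with shST3GAL3 above, and for 2 (3.92%) with shST3GAL3 below. Over all genes tested, 9.19% were higher at that unadjusted p, and 15.7% and 7.76% had no overlap with shST3GAL3 above and below. Leaving out a control library gave 0 (shControl 1), 0 (shControl 2) and 1 (shControl 3) in place of these 5, and leaving out a knockdown library gave 5 (shST3GAL3 1), 2 (shST3GAL3 2) and 12 (shST3GAL3 3). The shares over all genes in the same fits were 5.73%, 4.41% and 4.76% for the controls left out, and 8.54%, 7.67% and 12.7% for the knockdown libraries left out.

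The co-receptor gene Ptk7, whose product takes part in planar cell polarity, was among the 5. It stood at 48.79, 15.04 and 14.21 TPM in shST3GAL3 1, 2 and 3, against 9.99, 7.30 and 9.46 TPM in shControl 1, 2 and 3 (log2 fold change 1.22, SE 0.45, limma adjusted p = 0.380, and 0.67 without shST3GAL3 1). Nkd2, a relative of Nkd1, stood at 6.91, 2.47 and 1.22 TPM in shST3GAL3 1, 2 and 3, against 1.00, 0.31 and 0.78 TPM in shControl 1, 2 and 3 (log2 fold change 1.24, SE 0.46, limma adjusted p = 0.380, and 0.73 without shST3GAL3 1). Both were highest in shST3GAL3 1, and neither overlapped between the groups. The other 3 were nuclear genes. The co-repressor gene Tle3 averaged 36.1 ± 9.47 TPM in shST3GAL3 and 24.6 ± 0.415 TPM in shControl tumours (SD, n = 3 each; log2 fold change 0.51, SE 0.17, and 0.31 without shST3GAL3 1). Tcf7l2, which encodes a DNA-binding partner of β-catenin, averaged 11.1 ± 0.453 TPM in shST3GAL3 and 9.24 ± 0.205 TPM in shControl tumours (SD, n = 3 each; log2 fold change 0.24, SE 0.09, limma adjusted p = 0.380). Tcf7l2 was not led by shST3GAL3 1, which at 10.60 TPM was the lowest of its group. Tle4, named here because it completes the count of 5, had a log2 fold change, 0.35 (SE 0.14; 0.29 without shST3GAL3 1).

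Among the pathway genes with negative log2 fold changes, Tle1, another co-repressor gene, led by p. It stood at 17.76, 29.09 and 31.26 TPM in shST3GAL3 1, 2 and 3, against 31.49, 32.74 and 34.52 TPM in shControl 1, 2 and 3 (log2 fold change -0.37, SE 0.21, limma adjusted p = 0.442, and -0.12 without shST3GAL3 1). Tle2 averaged 7.62 ± 0.746 TPM in shST3GAL3 and 9.09 ± 1.29 TPM in shControl tumours (SD, n = 3 each). The cell cycle gene Ccnd1, a widely used target, averaged 240 ± 53.7 TPM in shST3GAL3 and 280 ± 23.1 TPM in shControl tumours (SD, n = 3 each; log2 fold change -0.25, SE 0.17, and -0.05 without shST3GAL3 1). Csnk1e, a kinase gene of the pathway, averaged 55.7 ± 2.11 TPM in shST3GAL3 and 59.6 ± 1.32 TPM in shControl tumours (SD, n = 3 each; log2 fold change -0.10, SE 0.07). For Tle1 and Csnk1e the groups did not overlap.

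The widely used targets did not move as a block. Of the 10 listed, 5 passed the filter, and 2 of these had a positive log2 fold change, Ccn4 and Cd44, the latter of only 0.003. The value for Cd44 was 0.036 without shST3GAL3 1 and -0.009 without shST3GAL3 2, so no direction can be given for it. Among those that did not pass, Tnfrsf19 and Bambi had groups that did not overlap, with shST3GAL3 above. That held for 5.63% of all genes that failed the filter and were above 0 in a library. For Sp5, Ascl2 and Mmp7 the groups overlapped. Ccn4, known as a WNT1-induced secreted protein of stromal cells, stood at 35.89, 9.83 and 8.35 TPM in shST3GAL3 1, 2 and 3, against 6.57, 4.50 and 7.23 TPM in shControl 1, 2 and 3 (log2 fold change 1.15, SE 0.51, limma adjusted p = 0.394, and 0.52 without shST3GAL3 1). Its libraries stood in the order of Sfrp2. Myc averaged 138 ± 24.4 TPM in shST3GAL3 and 155 ± 11.4 TPM in shControl tumours, with overlap (SD, n = 3 each; log2 fold change -0.18, SE 0.14, and -0.04 without shST3GAL3 1). Cd44 averaged 257 ± 10.2 TPM in shST3GAL3 and 258 ± 26.2 TPM in shControl tumours (SD, n = 3 each). The R-spondin genes Rspo1, Rspo2, Rspo3 and Rspo4, whose products strengthen WNT signals, did not exceed 0.39 TPM in any library.

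**Figure D5:**
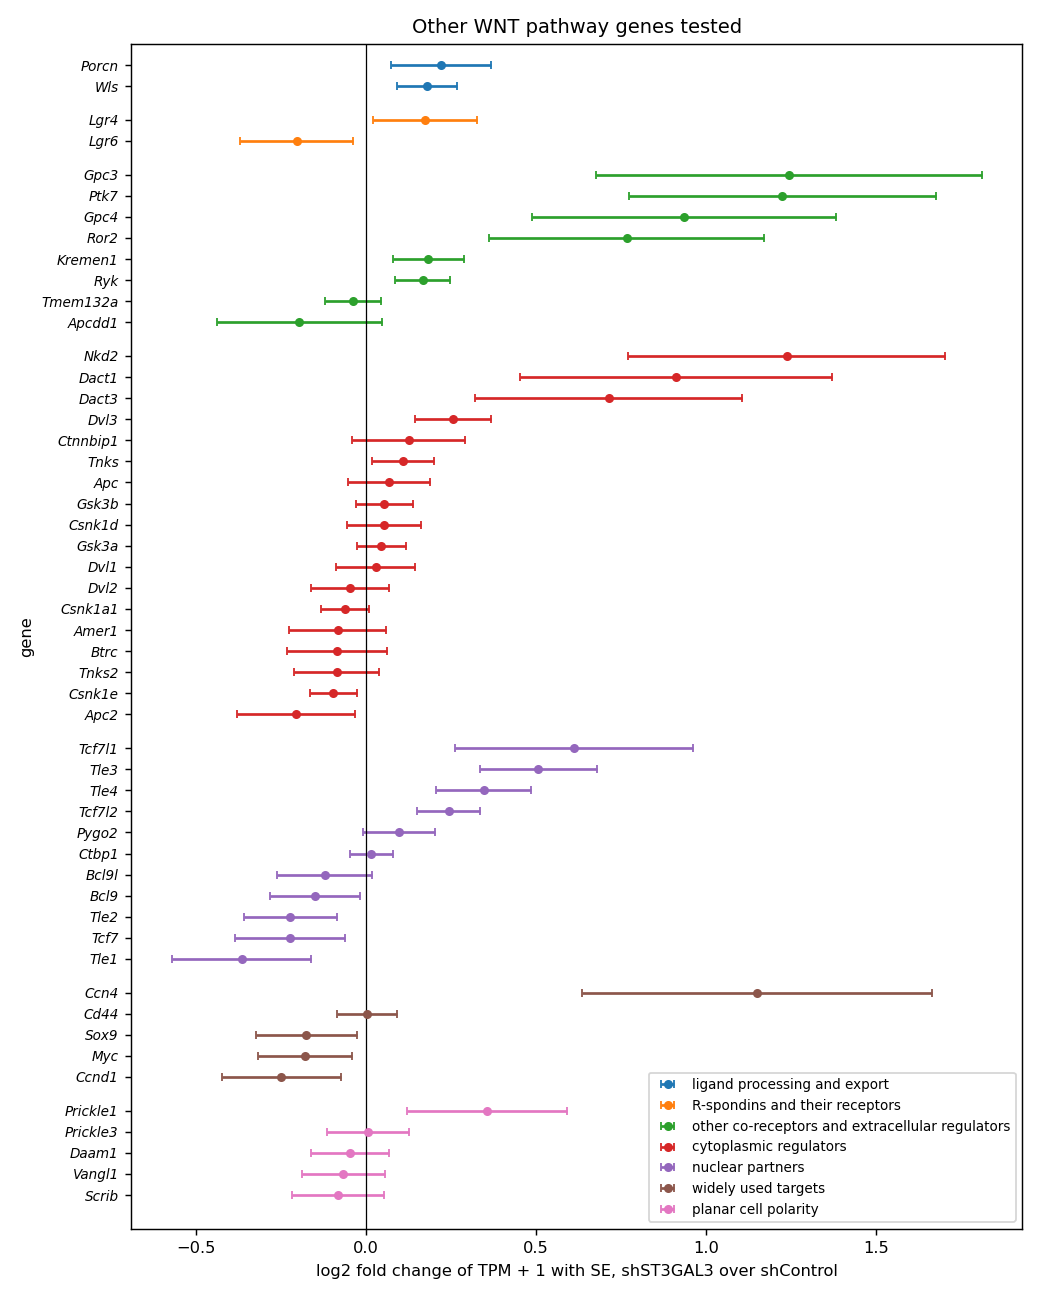
Log2 fold change of TPM + 1, shST3GAL3 over shControl, with SE, for the 51 other WNT pathway genes that passed the filter, coloured by role. Of the 18 cytoplasmic genes 15 lie within 0.3 of 0, and Gpc3, Nkd2, Ptk7 and Ccn4 lie furthest to the right with wide errors. Within that limit too lie 4 of 5 widely used targets, 4 of 5 polarity genes, 7 of 11 nuclear partners and 4 of 8 other co-receptors and regulators. For ligand export and for R-spondins and their receptors it is 2 of 2 each. The share over all genes was not taken.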

How the data were processed

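RNA sequencing of 6 HM1 tumours was analysed, and samples were grouped by their titles. The deposited values are TPM, given by the authors per gene with 2 decimals, and relative to the total of its library. Per the submitters' processing notes, fastp, HISAT, RSEM and the build GRCm39 were used, but the sources used here give neither versions nor parameters, annotation or strandedness. The read depth behind TPM is unknown, so precision rests on the replicates alone and no counting error is given. Reads shared by near-identical or overlapping genes could have been divided between them.

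A gene was tested where 3 or more of the 6 libraries had at least 1 TPM. The values were taken to log2 after adding 1 and fitted with limma 3.58.1 (R 4.3.3), using eBayes with its trend option and the group as the only term. P-values were adjusted over all genes by the Benjamini-Hochberg method at a threshold of 0.05. Fold changes on this scale understate the change of low genes. The procedure was tested on simulated data. Numbers in the titles were not taken to pair tumours, since same-numbered libraries of the groups did not deviate together (r across genes 0.01, -0.08 and 0.04). Alternatives were a pseudocount of 0.1, no filter, a filter on the mean, median-ratio scaling, the replicate number as a block, library weights and leaving out each library.

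The WNT genes and all lists were chosen with earlier results of these data known. Genes named with full statistics were, in each role, the 4 with the smallest p and the 2 with the highest mean, and Ctnnb1, Axin2, Lef1, Nkd1, Rnf43 and Znrf3, and of the other pathway genes the 4 with the smallest p in each direction. Other genes named were chosen after their values were seen. Promoter sequences are those of RefSeq on GRCm38.p6, another build than that of the files, and were matched by symbol.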

Additional observations from a re-analysis of the deposited data

How the results depend on the processing

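No WNT gene and no other pathway gene was called after adjustment over all genes under any of the alternatives listed above. For the 26 WNT and pathway genes that the naming rule chose, 308 of 312 refitted log2 fold changes kept their sign and their side of the threshold. The other 4 were Wnt7b with library weights (0.022) and without shST3GAL3 replicate 1 (0.018), and Axin1 with library weights (-0.015) and without shST3GAL3 replicate 3 (-0.026). Leaving out 1 library at a time gave -0.31 to 0.018 for Wnt7b and -0.026 to 0.087 for Axin1. The cause was not tested.

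With the replicate block, 1 WNT gene, Fzd5, was lower at an unadjusted p under 0.05, against 0 without it. The block moved the 4 higher genes to 6, and it changed no adjusted call. Over all genes tested, 9.73% were higher and 3.98% lower at that p with the block. Without the filter, 77 pathway genes were tested and 13 were higher and 1 lower at an unadjusted p under 0.05, where 5.9% and 2.26% of all genes were. With library weights, 9 of 51 were higher and 1 lower, where 12.9% and 4.83% of all genes were. Leaving out 1 library at a time gave 0 to 7 higher and 0 to 1 lower WNT genes, and 0 to 12 higher and 0 to 3 lower pathway genes, while 4.41% to 12.7% of all genes were higher and 1.72% to 5.46% lower. Median-ratio scaling moved the share of higher genes among all those at that p to 55.2%, against 70.8% without it. With 1 library left out at a time, the median log2 fold change of the WNT genes ranged from 0.15 to 0.54. It lay between 0.21 and 0.53 under the other alternatives, median-ratio scaling among them. St3gal3 kept an unadjusted p under 0.05 throughout, with log2 fold changes from -0.89 to -0.73. Depth is unknown, so for genes under 1 TPM no limit of detection can be given.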
